A study of Mus musculus with 40 samples.

Results

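The comparison of iCre with LacZ in the presence of bFGF asks what loss of TAK1 changed in the transcripts of cardiac fibroblasts held in basic fibroblast growth factor. It rests on 8 of the 40 libraries, and its genes were chosen on counts alone: of 55414 identifiers in the count table, 25210 held at least 10 counts over the 40 libraries and were tested. The cells were cardiac fibroblasts of adult C57BL/6J mice with the TAK1fl/fl genotype, and both groups carried the floxed Map3k7 allele. They were expanded to passage 1 in medium with serum, insulin, transferrin, selenium and human bFGF, given an adenovirus for LacZ or for iCre (a Cre recombinase) under the CMV promoter, and, once starved of serum, exposed to 20 ng/ml bFGF for 24 h. The LacZ_bFGF and iCre_bFGF groups held 4 replicates each, and polyadenylated RNA was sequenced. The Con groups had the same viruses and serum starvation without a ligand, and the TGF and IL1b groups had 10 ng/ml TGFb or 15 ng/ml IL-1b in place of bFGF. The TNFa groups had 10 ng/ml TNFa, and their 8 libraries enter the count filter, the scaling of CPM and the fit of all 40 libraries. Cells without the floxed allele that received iCre were not analysed here, so Cre protein and loss of TAK1 cannot be told apart. The groups also received different adenoviruses, and no group without virus was analysed here. Effects of the virus preparation or of LacZ therefore cannot be told apart from loss of TAK1 either. The sources used here do not say whether same-numbered libraries share a heart. In the main test, p-values measure the spread of the iCre-LacZ difference between same-numbered pairs, with differences between replicate numbers taken out.

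TAK1, the product of Map3k7, is a mitogen-activated kinase kinase kinase. Bound to TAB adaptors, it relays signals of IL-1, TNF, Toll-like and TGFb receptors to IkB kinase and NF-kB and to the stress kinases JNK and p38. bFGF acts through FGF receptor tyrosine kinases and the RAS-ERK cascade, which induces its own brakes, the dual-specificity phosphatases and Sprouty proteins, together with ETS and EGR transcription factors. In the heart, fibroblasts make the collagen matrix, and bFGF is known as a mitogen for them that opposes the contractile myofibroblast state.

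The 8 libraries held 26971490 to 66160732 counts, with the highest total in iCre replicate 2. Levels are given below as CPM, counts scaled to the library size, always in the order of replicates 1 to 4, and changes as the log2 fold change of iCre over LacZ ± its standard error. The changes come from edgeR's quasi-likelihood test with each pair of same-numbered libraries as a block. For edgeR, the standard error is the size of the log2 fold change divided by the square root of that test's F statistic. A gene is called higher or lower where its Benjamini-Hochberg adjusted p over all genes tested is at most 0.05. Fibroblast markers were high in all 8 libraries, and the summed CPM of 10 of them was 22879.6 to 30662 in LacZ and 17278 to 25220.1 in iCre. The summed CPM of 7 macrophage and leukocyte markers was 49.5 to 114 in LacZ and 26.5 to 66.3 in iCre, that of 6 pericyte and smooth muscle markers 182 to 668 and 322 to 1199, and that of 6 endothelial markers 12.7 to 16.8 and 9.74 to 13.2. Cardiomyocyte, mesothelial and Schwann cell markers summed to at most 31.3, 4.7 and 9.79 CPM, Myh6, Cd3e and Nkg7 had under 10 counts in the whole series, and the one lymphocyte marker tested, Cd79a, reached 0.122 CPM. Ddx3y, a Y-linked gene, lay between 81.8 and 127 CPM and Xist at or below 0.487 CPM, so no library of the 8 stood apart by these genes, and of 5 sex chromosome genes 1 was called lower and 1 higher, neither of them without replicate 1 or without replicate 3. Replicate 2 stood apart from the other numbers in both groups for many genes below. The numbers in the library names are higher for every iCre library than for its LacZ partner, so the order of the libraries and the group cannot be told apart.

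Map3k7 itself (ENSMUSG00000028284, GRCm38 chromosome 4, 31964097 to 32023467, plus strand) was lower in each iCre library than in its LacZ partner. It was at 203, 166, 213 and 212 CPM in the LacZ libraries (mean 199 ± 22, SD, n = 4) and at 159, 129, 154 and 160.2 CPM in the iCre libraries (150.4 ± 14.7, SD, n = 4), and the groups did not overlap. The log2 fold change was -0.40 ± 0.07, which is 1.32-fold lower (edgeR, adjusted p = 0.00041). The floxed segment holds exon 2 alone, which carries the ATP-binding site, and the counts cover the whole gene, so transcripts of a recombined allele still count here and the values do not measure the share of cells that recombined.

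**Figure D1:**
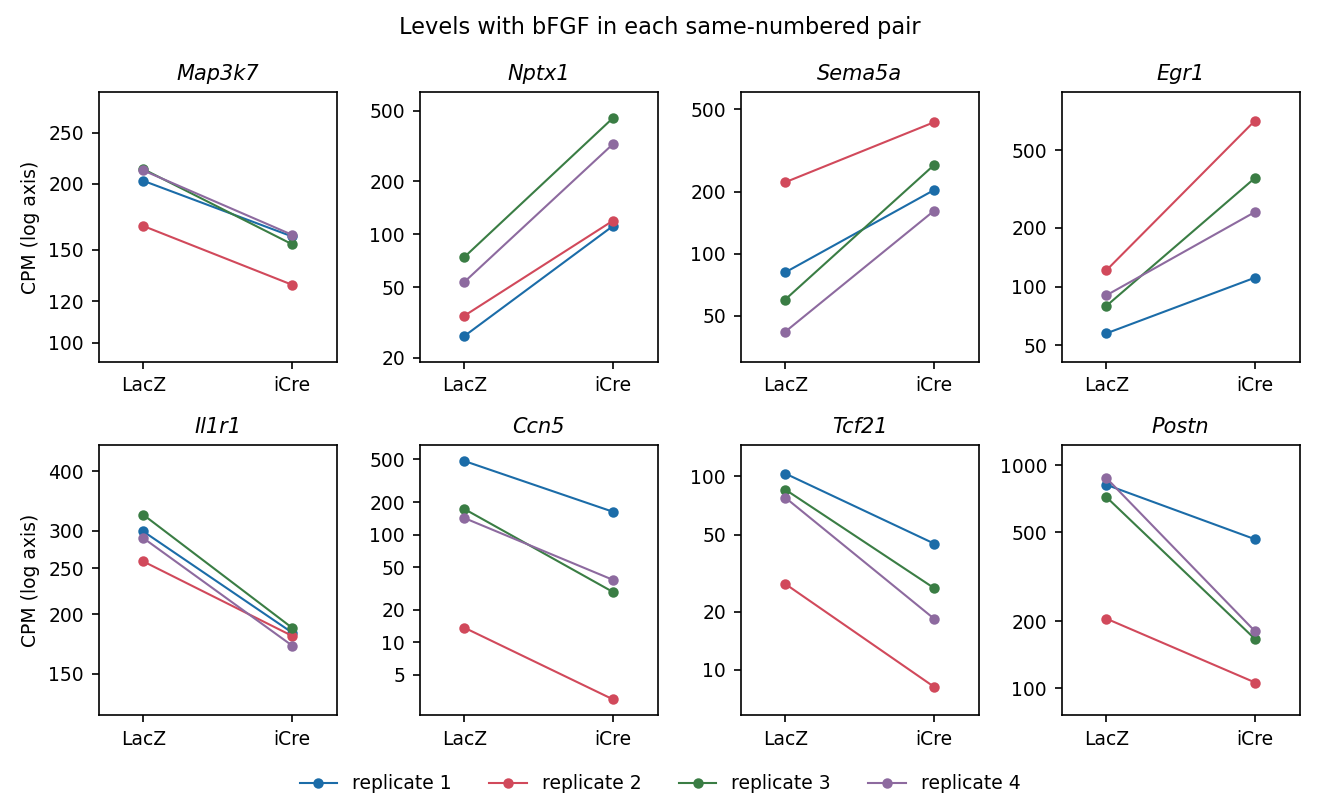
Levels of 8 genes in the 4 LacZ and 4 iCre libraries with bFGF, in CPM on a log axis, with a line for each same-numbered pair. All 4 lines fall for Map3k7, Il1r1, Ccn5, Tcf21 and Postn and rise for Nptx1, Sema5a and Egr1, while replicate 2 starts from another level for Ccn5, Tcf21, Postn and Sema5a.

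Across the transcriptome, 3492 of 25210 genes (13.9%) differed between iCre and LacZ with bFGF, 1673 higher in iCre (6.64%) and 1819 lower (7.22%). Among the 13150 genes that averaged 1 CPM or more over the 8 libraries, 25.4% were called, 1611 higher (12.3%) and 1724 lower (13.1%), and the counts of the gene lists below, most of whose members reach that level, are to be read against these shares as well. Most differences were small: the median size among called genes was 0.42 on the log2 scale for the higher and 0.48 for the lower genes, and 193 higher and 320 lower genes moved by at least 1. Over all genes tested the median log2 fold change was 0.01. The calls rest on the pairing of the libraries: without the replicate block 0 genes were called by edgeR (2585 had an unadjusted p under 0.05), and the DESeq2 Wald test called 3320 genes with the block and 481 without it. Leaving out replicate 3 lowered the count from 3492 to 2111, and leaving out each of the other numbers gave 2524 to 3556.

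The 12 genes with the largest rises had log2 fold changes of 1.68 to 2.92. Nptx1, which encodes the secreted pentraxin neuronal pentraxin 1, was at 26.5, 34.5, 74.2 and 53.6 CPM in the LacZ libraries and 112, 119, 456 and 325 CPM in the iCre libraries. All 4 iCre libraries lay above all 4 LacZ libraries (log2 fold change 2.27 ± 0.11, adjusted p = 2.7e-11). Sema7a, a membrane-anchored semaphorin, was at 6.27, 15.4, 8.82 and 12.4 CPM in the LacZ libraries and 24.3, 21.8, 67.8 and 108 CPM in the iCre libraries, again without overlap (2.15 ± 0.26, adjusted p = 5.1e-06). Krt18, an intermediate filament of simple epithelia, rose from 0, 0.755, 0.694 and 0.538 CPM to 2.23, 3.43, 4.49 and 4.07 CPM (2.92 ± 0.34, adjusted p = 2.9e-06). Grm7, a metabotropic glutamate receptor, rose by 2.13 ± 0.25 and Kcna6, a voltage-gated potassium channel, by 1.68 ± 0.30, both from levels of at most 1.76 CPM. Syt13, a synaptotagmin, rose by 1.75 ± 0.18. The desmosomal cadherin Dsc2 rose by 1.76 ± 0.30 and reached 6.99 CPM in replicate 2 but at most 0.855 CPM in the other iCre libraries. Akr1c18, a steroid dehydrogenase from a family of close copies whose reads may be shared, rose by 1.71 ± 0.23. Tmem163, Wdr72 and Lbhd2 rose by 1.84, 1.88 and 1.75, and Egr1 completes the 12 (below). The adjusted p-values of these 12 genes ran from 2.7e-11 to 0.00038.

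The 12 genes with the largest falls had log2 fold changes of -2.27 to -1.81. Ccn5, a matricellular protein of the CCN family, was at 484, 13.7, 173 and 143 CPM in the LacZ libraries and 163, 2.95, 29.3 and 38 CPM in the iCre libraries. Each iCre library was below its partner, replicate 2 was low in both groups, and the groups overlapped (-2.05 ± 0.11, adjusted p = 1.4e-10). Smoc2, a calcium-binding matricellular protein, was at 69.1, 13.7, 28.4 and 39.9 CPM in the LacZ libraries and 24.7, 3.85, 5.31 and 7.7 CPM in the iCre libraries (-2.01 ± 0.13, adjusted p = 1.1e-09). C7, a terminal complement component, was at 7.4, 14.4, 9.09 and 9.9 CPM in the LacZ libraries and 4.69, 1.64, 1.4 and 2.78 CPM in the iCre libraries, and here the groups did not overlap (-2.07 ± 0.26, adjusted p = 8.9e-06). Spon1, the matrix protein F-spondin, fell by 2.23 ± 0.22, and Fstl4, a follistatin-like protein, by 1.81 ± 0.30. Gpr182, an atypical chemokine receptor, fell by 2.27 ± 0.24 without overlap, and the TEC family kinase Bmx by 2.11 ± 0.26. Strip2, a subunit of striatin complexes, was at 19.98, 18.5, 23.1 and 16 CPM in the LacZ libraries and 7.84, 3.14, 5.46 and 4.95 CPM in the iCre libraries (-1.92 ± 0.15, adjusted p = 1.4e-08). The potassium channel gene Kcnj5 fell by 1.84 ± 0.31, and Brinp2, Astn1 and Phf11a by 2.1, 2.06 and 2.22, all from levels of at most 18.5 CPM. Phf11a belongs to a cluster of close copies whose reads may be shared. The adjusted p-values of these 12 genes ran from 1.4e-10 to 0.0007.

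**Figure D2:**
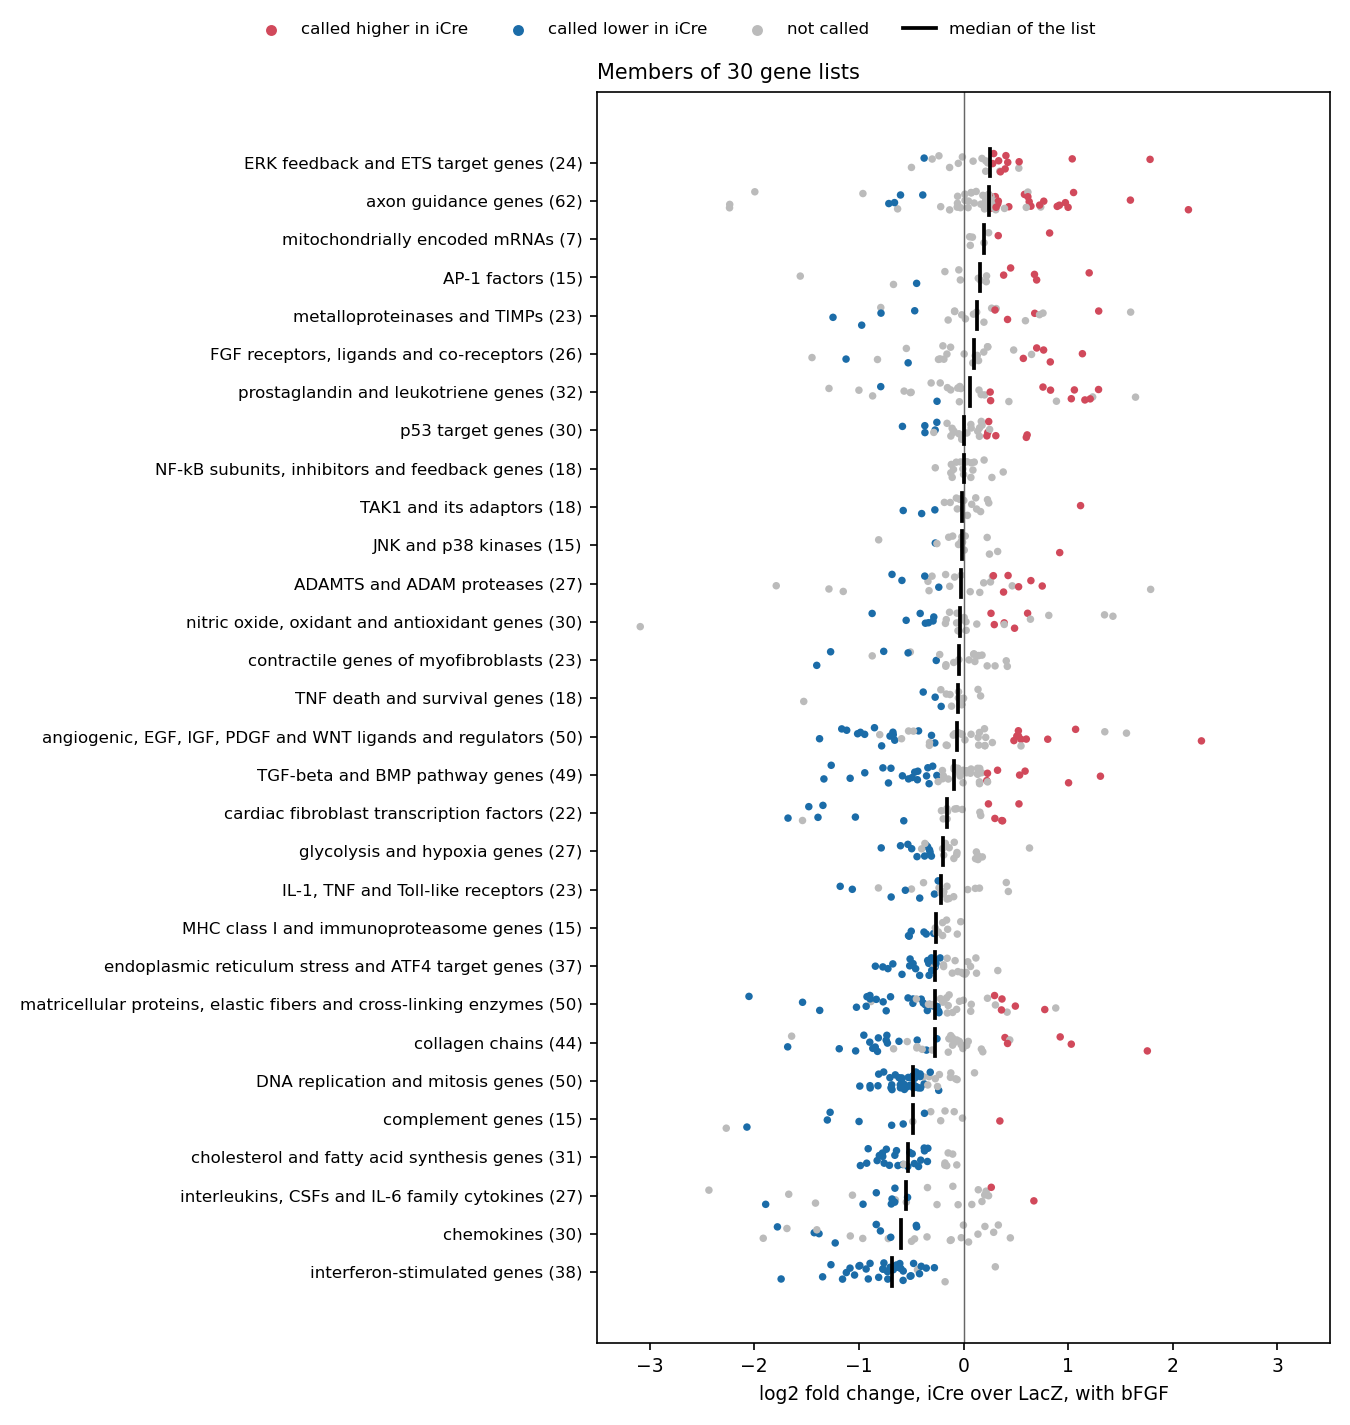
Log2 fold changes of iCre over LacZ with bFGF for the tested members of 30 gene lists, 1 row per list with the number of members in brackets, ordered by the list's median (black bar). Ccl22 (-3.54) among the chemokines and Csf2 (-3.53) among the cytokines lie just beyond the left end of the x axis. Points are genes, red where called higher, blue where called lower and grey where not called. The lowest medians are those of interferon-stimulated genes (-0.69) and chemokines (-0.60, but -0.46 with the stricter filter). The highest is that of ERK feedback genes (0.25).

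Interferon-stimulated genes, the antiviral program switched on by interferon receptors, were lower in iCre. Of 38 tested, 35 were called lower, beside 7.22% of all genes and 13.1% of those averaging 1 CPM or more, and 0 higher. Their median log2 fold change was -0.69 against 0.01 over all genes. Mx1, a GTPase that restricts RNA viruses, was at 1.35, 7.4, 5.51 and 25.3 CPM in the LacZ libraries and 0.658, 2.39, 2.2 and 4.24 CPM in the iCre libraries (-1.74 ± 0.20, adjusted p = 2.4e-06). Ifit3 and Ifit1, which bind viral RNA or act with the proteins that do, were likewise lower in each pair. Ifit3 was at 107, 236, 190.3 and 707 CPM in the LacZ libraries and 48.4, 89.5, 124 and 189.9 CPM in the iCre libraries (-1.27 ± 0.13, adjusted p = 4.3e-07), and its reads may be shared with the close copy Ifit3b. Ifit1 was at 84.5, 277, 157 and 474 CPM in the LacZ libraries and 39.7, 114, 135 and 181 CPM in the iCre libraries (-1.0 ± 0.12, adjusted p = 8.1e-06). Isg15, a ubiquitin-like modifier, was at 49.9, 199.9, 113 and 296 CPM in the LacZ libraries and 26.7, 52, 84.9 and 141 CPM in the iCre libraries (-1.09 ± 0.14, adjusted p = 1.6e-05). Rsad2, the antiviral enzyme viperin, and Mx2 fell by 1.35 ± 0.13 and 1.16 ± 0.15, and Usp18, which removes ISG15 and restrains interferon receptor signalling, by 0.58 ± 0.13, in 3 of 4 pairs (adjusted p = 0.0027). In both groups replicate 4 was highest and replicate 1 lowest for each of Mx1, Ifit3, Ifit1 and Isg15, the groups overlapped, and the difference lay within the pairs. Between 27 and 36 members were called lower when a replicate number was left out, with medians of -0.86 to -0.54, and 1 was called higher without replicate 3. In a fit of all 40 libraries, whose spread is shared over all groups, 3 were called lower (median -0.72), and 0 by DESeq2 or edgeR without the replicate block. Without replicate 2, Usp18 had a log2 fold change of -0.35.

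**Figure D3:**
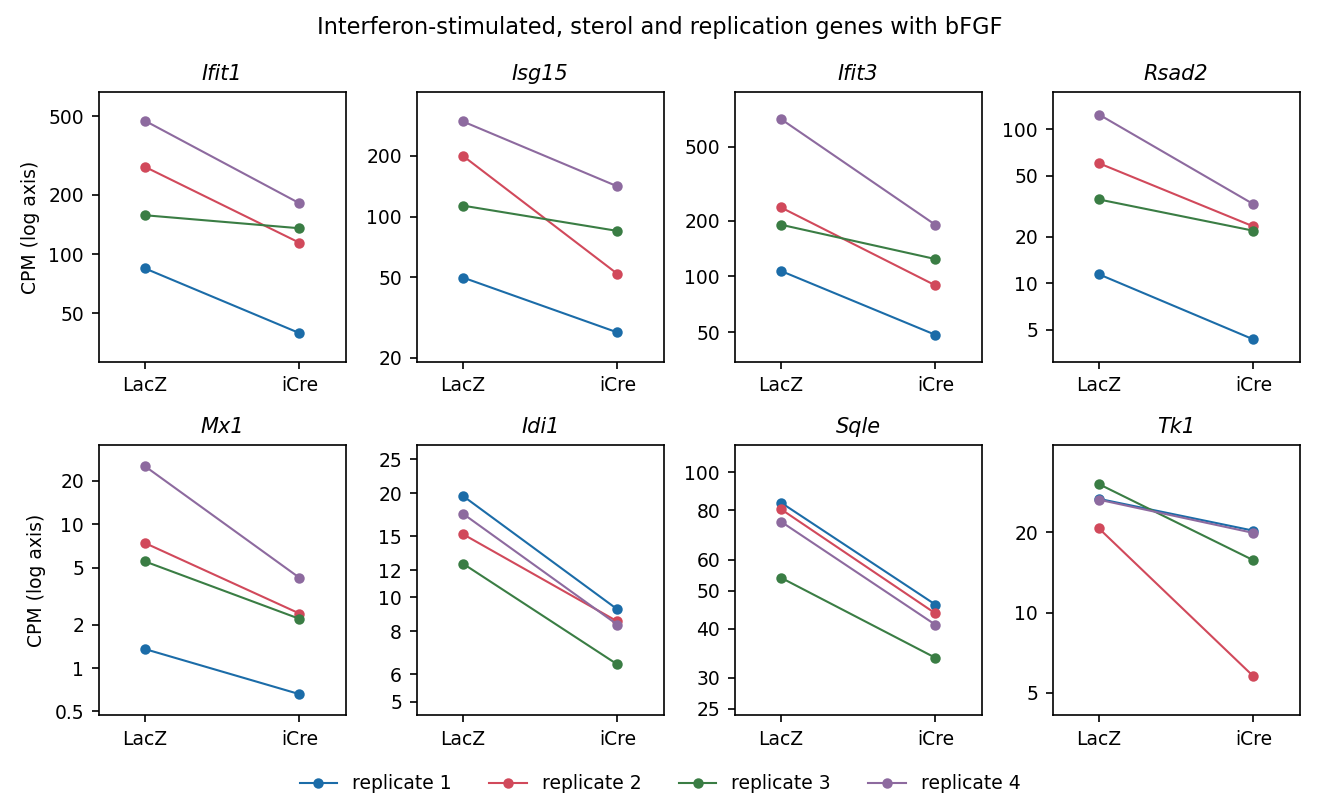
Levels of 5 interferon-stimulated genes (Ifit1, Isg15, Ifit3, Rsad2, Mx1), 2 sterol synthesis genes (Idi1, Sqle) and the replication gene Tk1 in the 8 libraries with bFGF, in CPM on a log axis, with a line for each same-numbered pair. Every line falls from LacZ to iCre, and the interferon-stimulated genes start highest in replicate 4 and lowest in replicate 1.

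The promoters of these genes are known for the interferon-stimulated response element, through which interferon induces them. Its core, GAAA followed after any 2 bases by GAAA on either strand, was searched in the 250 bases before each start site in RefSeq's promoter table (GRCm38.p6). It was found for 15 of the 28 list members with an entry (53.6%) and for 936 of 27025 genes in the table (3.46%). The upstream sequences of 4 genes described above that held it are printed 5′ to 3′ on the gene's strand with each match in capitals, to show the letters that these genes share. The matches in Isg15 overlap one another, and capitals in the other 3 are the core read on the opposite strand. They lie at chr19:34640639-34640888, plus strand, at chr19:34583279-34583528, plus strand, at chr4:156200819-156201068, minus strand and at chr12:26456453-26456702, minus strand, and end at the base before the start site.
Ifit1: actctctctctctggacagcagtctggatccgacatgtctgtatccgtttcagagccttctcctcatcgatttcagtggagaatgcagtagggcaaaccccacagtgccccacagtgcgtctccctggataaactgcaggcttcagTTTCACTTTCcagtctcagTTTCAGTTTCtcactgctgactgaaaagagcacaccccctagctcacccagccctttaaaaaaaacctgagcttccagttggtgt
Ifit3: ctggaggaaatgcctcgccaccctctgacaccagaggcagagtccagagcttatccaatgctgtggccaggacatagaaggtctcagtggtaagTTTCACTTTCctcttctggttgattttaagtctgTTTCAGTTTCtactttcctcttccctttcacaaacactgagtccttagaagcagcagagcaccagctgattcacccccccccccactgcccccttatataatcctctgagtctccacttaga
Isg15: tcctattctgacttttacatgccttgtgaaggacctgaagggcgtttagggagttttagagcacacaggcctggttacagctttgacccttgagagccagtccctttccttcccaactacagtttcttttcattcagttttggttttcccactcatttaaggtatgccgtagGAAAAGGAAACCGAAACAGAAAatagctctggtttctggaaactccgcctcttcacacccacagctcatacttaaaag
Rsad2: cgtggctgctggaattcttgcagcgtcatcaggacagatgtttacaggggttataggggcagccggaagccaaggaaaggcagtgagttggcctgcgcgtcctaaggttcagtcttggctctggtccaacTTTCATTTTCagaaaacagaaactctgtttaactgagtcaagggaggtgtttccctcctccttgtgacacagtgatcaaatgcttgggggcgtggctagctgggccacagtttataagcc

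Antigen presentation genes, many of them also inducible by interferon, were lower where they were called. Of 15 MHC class I and immunoproteasome genes, 6 were called lower and 0 higher (median -0.26), and 3 lower without replicate 4, when Psmb8 was no longer called (adjusted p = 0.096). A fit of all 40 libraries called 0 of the 15. Psmb8, an immunoproteasome subunit, fell by 0.52 ± 0.12 and the class Ib gene H2-T23 by 0.53 ± 0.09. H2-K1, a classical class I heavy chain, had a log2 fold change of -0.06 ± 0.11, adjusted p = 0.85. The H2 genes are close copies, and how the counting split their reads is not stated.

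Chemokines and IL-1 and TNF receptors were lower where they were called. Of 30 chemokines, 9 were called lower and 0 higher (median -0.60), with 1 higher without replicate 1. Several members averaged under 1 CPM, and with the stricter filter, which tested 23 of them, the median was -0.46. Cxcl1, a neutrophil chemoattractant, was at 3.83, 5.18, 5.82 and 4.96 CPM in the LacZ libraries and 1.37, 2.97, 1.43 and 1.97 CPM in the iCre libraries, without overlap between the groups (-1.38 ± 0.20, adjusted p = 4.2e-05). Ccl2, which attracts monocytes, was at 83.4, 129.9, 126 and 164 CPM in the LacZ libraries and 64.5, 71.4, 116 and 120.4 CPM in the iCre libraries. It fell by 0.45 ± 0.09 (adjusted p = 0.0016). Cxcl10, itself inducible by interferon, fell by 1.43 ± 0.19, Cxcl5 by 1.23 ± 0.22 and Ccl6 by 1.78 ± 0.27. Of 27 interleukins and related cytokines, 8 were called lower and 2 higher, the latter 1 without replicate 3. Their median was -0.55, and -0.34 without replicate 2 and -0.29 with the stricter filter. With that filter 4 were called lower, and 2 in a fit of all 40 libraries. Il6 was at 8.72, 10.9, 9.56 and 9.9 CPM in the LacZ libraries and 5.55, 1.88, 6.5 and 11.9 CPM in the iCre libraries, lower in 3 of 4 pairs (-0.83 ± 0.26, adjusted p = 0.034). Il6 was not called without replicate 1 (adjusted p = 0.084) or without replicate 2, when its log2 fold change was -0.31 (adjusted p = 0.2). Tnfsf15 and Il34, a TNF family ligand and a ligand of the CSF1 receptor, fell by 1.89 ± 0.33 and 0.96 ± 0.16, and Csf1, the other ligand of that receptor, had a log2 fold change of 0.14 ± 0.09, adjusted p = 0.44.

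Il1r1, the signalling receptor for IL-1, was one of 23 IL-1, TNF and Toll-like receptors, of which 7 were called lower and 0 higher (median -0.21, and 3 lower without replicate 1 or without replicate 3). It was at 299, 258, 324 and 289 CPM in the LacZ libraries and 183, 180.2, 187 and 172 CPM in the iCre libraries, and the groups did not overlap (-0.69 ± 0.07, adjusted p = 9.9e-07). Tnfrsf1a, the main TNF receptor, was at 366, 342, 371 and 308 CPM in the LacZ libraries and 289.7, 282, 288 and 282 CPM in the iCre libraries, also without overlap (-0.28 ± 0.07, adjusted p = 0.01). Tlr3, a receptor for double-stranded RNA, fell by 0.56 ± 0.12. Tnfrsf1a was not called without replicate 1 or 3 (adjusted p = 0.073 and 0.12), nor Tlr3 without replicate 4 (log2 fold change -0.36, adjusted p = 0.057). Of 18 NF-kB subunits, inhibitors and feedback genes, 0 were called by edgeR or by DESeq2 with the block, and 3 had an unadjusted edgeR p under 0.05, while 1 was called higher without replicate 2 and 1 lower with the GC correction: the subunit gene Rela had a log2 fold change of 0.09 ± 0.07, adjusted p = 0.56, and Nfkbia, which encodes the inhibitor IkBa, of -0.07 ± 0.09, adjusted p = 0.76. In the TAK1 complex and its adaptors, 4 of 18 were called, a share between the 13.9% of all genes and the 25.4% of those averaging 1 CPM or more, so the count does not set these members apart. Besides Map3k7 and Usp18, Ube2n, a ubiquitin-conjugating enzyme, fell by 0.27 ± 0.08 (not called without replicate 1, 2 or 3, adjusted p = 0.055 to 0.11), and Ppm1l, a phosphatase known to act on TAK1, rose. Ppm1l was at 5.88, 8.3, 8.2 and 9.33 CPM in the LacZ libraries and 13.7, 13, 19.4 and 24.3 CPM in the iCre libraries, without overlap (1.12 ± 0.12, adjusted p = 1.6e-06), while the adaptor Tab1 had a log2 fold change of 0.04 ± 0.10, adjusted p = 0.91. Of 15 stress kinase genes, 1 was called higher and 1 lower, close to the 13.9% of all genes called either way. Mapk8 (JNK1) fell by 0.27 ± 0.08 and Mapk13 (p38 delta) rose by 0.92 ± 0.11, and Mapk14 (p38 alpha) had a log2 fold change of 0.02 ± 0.07, adjusted p = 0.96. The call of Mapk8 was lost with the GC correction and without replicate 1, 3 or 4 (adjusted p = 0.087 to 0.21). Of 18 genes of TNF-driven death and survival, 3 were called lower and 0 higher. That share too lies between the 13.9% of all genes and the 25.4% of those averaging 1 CPM or more, so the count does not set these members apart. Among the called genes was the necroptosis effector Mlkl, lower by 0.39 ± 0.09. Casp8 and Cflar had log2 fold changes of -0.16 ± 0.09 and -0.12 ± 0.08, neither past the threshold. Without replicate 3 or without replicate 4, 1 of the 18 was called lower, and Mlkl was not called without replicate 4 (adjusted p = 0.076).

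Complement genes fell more often than they rose, 7 against 1 of 15 (median -0.48), the latter 0 without replicate 4. C1qb, a chain of the recognition molecule of the classical pathway, was at 4.99, 2.47, 4.19 and 9.81 CPM in the LacZ libraries and 3.83, 0.892, 1.07 and 3.43 CPM in the iCre libraries (-1.3 ± 0.21, adjusted p = 0.00018), and the fall of C7 is given above, whereas C3, the central component, and C1s1, a protease of the classical pathway, had log2 fold changes of -0.09 ± 0.12 and -0.01 ± 0.12, not past the threshold. C1q chains are known as macrophage products, and macrophage markers moved with this comparison: 3 of 7 were called lower, Lyz2 by 1.13 ± 0.14, C1qa by 1.36 ± 0.24 and Adgre1 by 0.98 ± 0.23, Adgre1 not being called without replicate 3 (adjusted p = 0.059). Lyz2 was at 66.5, 26.9, 48.5 and 83.3 CPM in the LacZ libraries and 47.6, 11.4, 12.9 and 42.6 CPM in the iCre libraries. Ptprc, the pan-leukocyte marker CD45, stayed at or below 1.47 CPM in all 8 libraries. The part of these cells in the chemokine, cytokine, complement and interferon results was not tested, and in bulk RNA fewer cells of a type and less RNA per cell cannot be told apart.

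Collagen genes were called lower more often than higher. Of 44 collagen chains, 16 were called lower and 5 higher (median -0.28). The median was -0.12 without replicate 4 and -0.43 without replicate 2. Col3a1, the chain of fibrillar type III collagen, was at 12514, 8261, 9726 and 9078 CPM in the LacZ libraries and 7712, 7427, 3662 and 3651 CPM in the iCre libraries, without overlap (-0.90 ± 0.13, adjusted p = 4.6e-05). Col1a1 was at 4231, 2806, 3712 and 2964 CPM in the LacZ libraries and 3913, 2699, 3199 and 2584 CPM in the iCre libraries. Its difference did not pass the threshold (-0.15 ± 0.07, adjusted p = 0.19), and Col1a2, its partner in type I collagen, fell by 0.25 ± 0.07 but was not called without replicate 1, 3 or 4 (adjusted p = 0.061 to 0.1). Col14a1, a fibril-associated collagen, was at 464, 92, 358 and 355 CPM in the LacZ libraries and 260.0, 30.02, 80.2 and 82.4 CPM in the iCre libraries (-1.68 ± 0.14, adjusted p = 3.4e-08). Col8a1, a network-forming collagen, fell by 1.19 ± 0.10.

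Of 50 genes for matricellular proteins, elastic fibers and cross-linking enzymes, 24 were called lower and 5 higher (median -0.27), the latter 3 without replicate 3 and 2 without replicate 4 or with the stricter filter. Postn, the matricellular protein periostin that marks activated fibroblasts, was at 816, 205, 719.6 and 876 CPM in the LacZ libraries and 465, 106, 166 and 180.1 CPM in the iCre libraries (-1.54 ± 0.17, adjusted p = 1.2e-06). It was lower in each pair, with larger gaps in replicates 3 and 4 than in 1 and 2. Fmod and Comp, which bind collagen fibrils, fell by 1.37 ± 0.18 and 1.02 ± 0.18. Fn1 (fibronectin) had a log2 fold change of 0.07 ± 0.08, adjusted p = 0.71. Of 23 contractile genes, 5 were called lower and 0 higher, with 8 lower without replicate 2 and 1 higher without replicate 4. Their median of -0.04 had no stable sign: it was 0.04 without replicate 3, 0.14 without replicate 4 and 0.05 without the replicate block, and -0.08 and -0.10 without replicate 1 and 2. Acta2, the smooth muscle actin of myofibroblasts, was at 255, 61.9, 145 and 117 CPM in the LacZ libraries and 148, 45.8, 82.5 and 57.7 CPM in the iCre libraries (-0.76 ± 0.08, adjusted p = 1.6e-06). Tagln, an actin-binding protein, was at 191, 59.5, 104 and 102 CPM in the LacZ libraries and 69.9, 34.3, 45.4 and 32.8 CPM in the iCre libraries (-1.27 ± 0.10, adjusted p = 1.5e-08). The collagen receptor subunit Itga11 fell by 1.4 ± 0.12 and the tropomyosin Tpm4 by 0.53 ± 0.07.

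Proteases that act on this matrix moved both ways. Of 23 metalloproteinases and TIMPs, 4 were called higher and 4 lower, with 2 higher and 3 lower without replicate 3, and 2 and 0 higher with the stricter filter and in a fit of all 40 libraries. Mmp3 (stromelysin-1) was at 1491, 1897, 1921 and 1622 CPM in the LacZ libraries and 1235, 913, 681 and 777 CPM in the iCre libraries, without overlap (-0.97 ± 0.12, adjusted p = 6.3e-06). Mmp9 (gelatinase B) was at 7.2, 1.71, 7.25 and 6.13 CPM in the LacZ libraries and 14.1, 7.03, 7.17 and 29.1 CPM in the iCre libraries, higher in 3 of 4 pairs (1.29 ± 0.23, adjusted p = 0.00052). Timp1, an inhibitor of these enzymes, fell by 0.47 ± 0.10 (log2 fold change -0.27 without replicate 2) and the membrane-anchored Mmp17 by 1.25 ± 0.22. Of 27 ADAMTS and ADAM genes, 6 were called higher and 4 lower, with 3 higher without replicate 1. Adamts2, which trims procollagen, and Adam12 fell by 0.59 ± 0.11 and 0.68 ± 0.08, and Adamts15 rose by 0.75 ± 0.12. DESeq2 with the block did not call Adamts2. The versican- and aggrecan-cleaving enzymes Adamts1 and Adamts5 had log2 fold changes of 0.28 ± 0.11 and -0.34 ± 0.13, neither past the threshold.

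Transcription factors of cardiac fibroblasts moved both ways, and over the 22 listed 6 were called lower and 5 higher, the latter 2 or 3 when replicate 3, or replicate 1 or 2, was left out. Tcf21, known for specifying cardiac fibroblasts from the epicardium, was at 103, 27.8, 85.5 and 77.7 CPM in the LacZ libraries and 45, 8.18, 26.5 and 18.4 CPM in the iCre libraries (-1.68 ± 0.10, adjusted p = 1.1e-09). Tbx20, a cardiac T-box factor, was at 434, 92, 353 and 347 CPM in the LacZ libraries and 223, 40.5, 125 and 91.1 CPM in the iCre libraries (-1.39 ± 0.11, adjusted p = 1.4e-08). Gata4, a zinc finger factor of heart development, was at 119.7, 54.5, 141 and 99.8 CPM in the LacZ libraries and 72.6, 24.2, 58.1 and 51.1 CPM in the iCre libraries (-1.03 ± 0.09, adjusted p = 3.5e-08). Each fell in all 4 pairs, replicate 2 was the lowest library of both groups, and the groups overlapped. Heyl, a target of Notch signalling, and the homeobox factor Meox2 fell by 1.48 ± 0.24 and 1.34 ± 0.19. The 5 factors called higher, named after their values were seen, changed less. Nr2f2, an orphan nuclear receptor, was at 77.3, 164, 69.1 and 83.4 CPM in the LacZ libraries and 111, 209.8, 109.6 and 125 CPM in the iCre libraries, higher in each pair (0.53 ± 0.08, adjusted p = 3.9e-05). Mef2c rose by 0.37 ± 0.11, Runx1 by 0.37 ± 0.10, in 3 of 4 pairs, Osr1 by 0.30 ± 0.08 and Zeb1 by 0.24 ± 0.07. Mef2c was not called without replicate 2, when its log2 fold change was 0.20, or without replicate 3 (adjusted p = 0.23 and 0.098). Runx1 was not called without replicate 4 (adjusted p = 0.14), Osr1 without replicate 1 or 3 (adjusted p = 0.063 and 0.29, with a log2 fold change of 0.19 without replicate 3) and Zeb1 without replicate 1, 2 or 3 (adjusted p = 0.054 to 0.18). With the stricter filter 2 factors were called higher. Of 10 fibroblast markers, 4 were called lower, Tcf21, Col3a1, Dcn (by 0.48 ± 0.10) and Col1a2, and 0 higher, with 1 higher without replicate 2 or without replicate 3. Without replicate 3 the log2 fold change of Dcn was -0.30. Of the pericyte and smooth muscle markers, Rgs5, an inhibitor of G protein signalling, was at 373, 82, 530.1 and 335 CPM in the LacZ libraries and 1025, 205, 943 and 614 CPM in the iCre libraries (1.12 ± 0.09, adjusted p = 2.8e-08). Cspg4 (NG2) rose by 0.89 ± 0.11, and the other 4 of the 6 were not called, with 1 lower without replicate 1. One endothelial marker of 6, Tek, fell by 0.54 ± 0.14 but was not called without replicate 3 or 4 (adjusted p = 0.13 and 0.07). Tnnt2 and Ryr2, listed as cardiomyocyte markers, moved in opposite directions, by -0.87 ± 0.16 and 1.69 ± 0.43, and Ryr2 was not called without replicate 1 or 3 (adjusted p = 0.067 and 0.14). Of the 4 mesothelial and 4 Schwann cell markers, 1 was called higher and 1 lower, all at levels under 10 CPM, and without replicate 3 or 4 neither call was made. The part of other cell types in these values was not tested.

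TGFb and BMP pathway genes moved both ways. Of 49, 18 were called lower and 7 higher (4 higher without replicate 3). Bmp2 was at 8.36, 49.3, 13.6 and 16.7 CPM in the LacZ libraries and 21.2, 89.5, 44 and 43.6 CPM in the iCre libraries (1.31 ± 0.11, adjusted p = 2.3e-08). Bmp6 was at 88.2, 13.3, 62.5 and 62 CPM in the LacZ libraries and 41.8, 5.68, 21 and 22.6 CPM in the iCre libraries (-1.33 ± 0.09, adjusted p = 1.7e-09). These related BMP ligands moved in opposite directions, each in all 4 pairs. Tgfb2 fell by 1.08 ± 0.12 without overlap, the inhibitory SMAD gene Smad7 by 0.29 ± 0.08 and the BMP target Id4 by 1.26 ± 0.23, and Tgfb1 had a log2 fold change of 0.15 ± 0.08, adjusted p = 0.31. Smad7 was not called without replicate 1 or 3 (adjusted p = 0.056 and 0.25). Of 50 other growth factors and regulators, 15 were called lower and 9 higher. Igf1 was at 53.9, 36.8, 52.7 and 62.8 CPM in the LacZ libraries and 38.2, 10.9, 15.6 and 22.1 CPM in the iCre libraries (-1.38 ± 0.14, adjusted p = 6.2e-07). Hgf (hepatocyte growth factor) rose by 0.60 ± 0.11, Vegfa fell by 0.31 ± 0.09 (-0.18 and not called without replicate 2, adjusted p = 0.16), and Sfrp1, a secreted WNT inhibitor, fell by 1.12 ± 0.11.

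Axon guidance genes, whose products steer growing axons and also act on other cells, rose more often than they fell: 20 of 62 were called higher and 4 lower, with a median of 0.24. Sema5a, a transmembrane semaphorin with thrombospondin repeats, was at 81.3, 222, 60.1 and 42 CPM in the LacZ libraries and 204, 433, 269 and 162 CPM in the iCre libraries (1.59 ± 0.13, adjusted p = 2.5e-08). Sema3a, a secreted semaphorin, was at 43, 139.8, 49 and 54.5 CPM in the LacZ libraries and 86, 148, 160.3 and 101 CPM in the iCre libraries (0.92 ± 0.15, adjusted p = 0.00016). Plxna4, a semaphorin receptor, was at 7.79, 2.72, 5.64 and 7.8 CPM in the LacZ libraries and 12.6, 5.27, 14.5 and 15.3 CPM in the iCre libraries (1.0 ± 0.13, adjusted p = 1.5e-05). All of these rose in each of the 4 pairs, Sema3a least in replicate 2. Leaving out a replicate number gave 17 to 19 members called higher and 3 or 4 lower.

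Genes of prostaglandin and leukotriene metabolism also rose more often than they fell, 9 against 2 of 32, with 6 to 8 against 1 when a replicate number was left out. Their median of 0.06 did not keep its sign, at -0.05 without replicate 1 and -0.02 with the stricter filter, and it was 0.21 without replicate 2 and 0.13 without replicate 3. Ptgs2 (cyclooxygenase-2) was at 17.1, 32.4, 32.8 and 31.2 CPM in the LacZ libraries and 19.3, 35.8, 87.1 and 90.9 CPM in the iCre libraries (0.83 ± 0.17, adjusted p = 0.0013). The rise was large in replicates 3 and 4 and small in replicates 1 and 2, and DESeq2 with the block did not call it. Ptges, the prostaglandin E synthase coupled to it, was at 20.01, 105, 48.2 and 43.2 CPM in the LacZ libraries and 42.4, 103, 86.4 and 97.8 CPM in the iCre libraries, higher in 3 of 4 pairs (0.76 ± 0.13, adjusted p = 0.00027). Ptgfr, the receptor for prostaglandin F2a, rose by 1.16 ± 0.12 and Pla2g7, which degrades platelet-activating factor, by 1.29 ± 0.17.

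In the pathway of bFGF itself, several immediate-early genes were higher in iCre, and the receptors were not called. Egr1, an immediate-early zinc finger factor, was at 57.5, 121, 79.4 and 90.04 CPM in the LacZ libraries and 111, 709, 360.4 and 241 CPM in the iCre libraries (1.78 ± 0.16, adjusted p = 8.8e-08). Egr3, its relative, was at 10.7, 11.2, 18 and 21.1 CPM in the LacZ libraries and 19.2, 17.3, 43.7 and 54.7 CPM in the iCre libraries (1.04 ± 0.11, adjusted p = 9.9e-07). Fos, an AP-1 subunit, was at 5.71, 7.6, 9.76 and 7.69 CPM in the LacZ libraries and 10.2, 43.7, 15.9 and 12.4 CPM in the iCre libraries, without overlap (1.2 ± 0.20, adjusted p = 0.00025). Over 24 ERK feedback and ETS target genes, 10 were called higher and 1 lower (median 0.25). Without replicate 2, 15 were called higher and 3 lower, without replicate 3 the counts were 6 and 2, and without replicate 4, 5 were called higher. A fit of all 40 libraries called 1 of the 24 higher and 0 lower. Of 15 AP-1 factors 5 were called higher and 1 lower. Jun, the main partner of Fos, rose by 0.45 ± 0.08, Fosb by 0.70 ± 0.16, Maf by 0.68 ± 0.13, Ier2 by 0.53 ± 0.13 and the chromatin protein gene Hmga2 by 0.42 ± 0.10. Without replicate 2 the log2 fold change of Fos was 0.74, Ier2 was not called without replicate 4 (adjusted p = 0.084), and Hmga2 was not called without replicate 3 or 4 (adjusted p = 0.076 and 0.059). The ERK phosphatase gene Dusp6 had a log2 fold change of 0.23 ± 0.08, adjusted p = 0.066 and Spry4, a Sprouty inhibitor, of 0.21 ± 0.08, adjusted p = 0.095. Of 26 FGF receptors, ligands and co-receptors, 5 were called higher and 2 lower, the latter 4 without replicate 2 and 1 without replicate 3. Fgf10 was at 2.74, 27.7, 3.69 and 2.51 CPM in the LacZ libraries and 7.26, 53, 7.72 and 6.0 CPM in the iCre libraries and rose by 1.14 ± 0.12. Fgf1 and the heparan sulfate proteoglycan Gpc1 rose by 0.83 ± 0.10 and 0.77 ± 0.12, the low-level Fgf23 fell by 1.12 ± 0.36 in 3 of 4 pairs (adjusted p = 0.043, with 0.13 to 0.25 and no call without replicate 1, 2 or 3, and a log2 fold change of -1.85 without replicate 4), and Fgfr1 and Fgf2, which encode the receptor and the endogenous form of the ligand, had log2 fold changes of 0.13 ± 0.07 and 0.09 ± 0.08, neither past the threshold.

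DNA replication and mitosis genes were lower in iCre: 39 of 50 were called lower and 0 higher, with a median of -0.48. Tk1 (thymidine kinase), needed for the nucleotide supply of S phase, was at 26.8, 20.7, 30.4 and 26.6 CPM in the LacZ libraries and 20.3, 5.76, 15.7 and 19.9 CPM in the iCre libraries, without overlap (-0.89 ± 0.16, adjusted p = 0.0004). Ccne2 (cyclin E2) was at 6.27, 3.67, 8.98 and 12.9 CPM in the LacZ libraries and 5.98, 1.2, 4.03 and 5.7 CPM in the iCre libraries (-0.99 ± 0.19, adjusted p = 0.0008). Mybl2 and E2f7, factors of the cell cycle program, fell by 0.89 ± 0.18 and 0.82 ± 0.15, and Top2a by 0.38 ± 0.10. Mki67, the proliferation marker Ki-67, was at 139, 152, 146 and 198 CPM in the LacZ libraries and 163, 75.4, 134 and 148 CPM in the iCre libraries, lower in 3 of 4 pairs, and did not pass the threshold (-0.33 ± 0.12, adjusted p = 0.083). Replicate 2 had the widest gap for Tk1 and Mki67, and without it 26 of the 50 were called lower and 1 higher, with a median of -0.28, Tk1 had a log2 fold change of -0.59, and Top2a was not called (-0.20, adjusted p = 0.1). The stricter filter left 22 of the 50 called lower, a fit of all 40 libraries 10, and DESeq2 without the replicate block 1. An E2F site, TTTCCCGC or TTTGGCGC on either strand of the same promoter window, was found for 6 of 42 list members with an entry (14.3%) and for 1.51% of all genes in the table. Of 30 p53 targets, 6 were called higher and 5 lower, with 2 and 2 without replicate 3 and 3 and 3 without replicate 1 or 4: the cyclin-dependent kinase inhibitor Cdkn1a rose by 0.23 ± 0.07 and Gadd45a by 0.61 ± 0.09, and Mdm2 had a log2 fold change of 0.15 ± 0.07, adjusted p = 0.22. Cdkn1a was not called without replicate 2, 3 or 4 (adjusted p = 0.09 to 0.17).

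Sterol synthesis genes fell with little spread between pairs. Of 31 cholesterol and fatty acid synthesis genes, 24 were called lower and 0 higher (median -0.53), and leaving out a replicate number gave 22 to 24. Without the replicate block, DESeq2 called 14 of them lower and edgeR 0, and a fit of all 40 libraries called 3. Idi1, an isomerase of the mevalonate pathway, was at 19.6, 15.2, 12.5 and 17.4 CPM in the LacZ libraries and 9.24, 8.53, 6.41 and 8.35 CPM in the iCre libraries (-0.99 ± 0.11, adjusted p = 1.6e-06). Sqle (squalene epoxidase) was at 83.8, 80.6, 53.9 and 74.9 CPM in the LacZ libraries and 46, 43.7, 33.7 and 40.9 CPM in the iCre libraries (-0.83 ± 0.08, adjusted p = 1.4e-07). For both genes the highest iCre library lay below the lowest LacZ library. Fdps, which makes farnesyl diphosphate, was at 43.9, 50.3, 33.4 and 52.9 CPM in the LacZ libraries and 23.4, 29.9, 16.9 and 26.2 CPM in the iCre libraries, also without overlap (-0.91 ± 0.08, adjusted p = 1.1e-07). The sterol regulatory element letters TCACNCCAC were found in the promoter window of 1 of 21 list members with an entry and of 1.23% of all genes in the table.

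Of 37 endoplasmic reticulum stress and ATF4 target genes, 21 were called lower and 0 higher (median -0.27), with 12 lower without replicate 3, 13 with the stricter filter and 2 in a fit of all 40 libraries. Atf4, the factor itself, was at 235, 138, 165 and 212 CPM in the LacZ libraries and 146, 97.9, 124 and 179 CPM in the iCre libraries (-0.46 ± 0.08, adjusted p = 0.00028). Its known targets Asns (asparagine synthetase) and Slc7a5 (a transporter of large neutral amino acids) fell by 0.68 ± 0.08 and 0.72 ± 0.10, Mthfd2 by 0.77 ± 0.12 and Trib3 by 0.84 ± 0.16, while the chaperone gene Hspa5 (BiP) fell by 0.28 ± 0.08 but was not called without replicate 2 or 3 (adjusted p = 0.1 and 0.14). Of 27 glycolysis and hypoxia genes, 11 were called lower and 0 higher (median -0.20), with 5 lower with the stricter filter and 1 in a fit of all 40 libraries: Ldha (lactate dehydrogenase A) fell by 0.50 ± 0.09 and Higd1a by 0.79 ± 0.09, and the glucose transporter gene Slc2a1 had a log2 fold change of 0.12 ± 0.10, adjusted p = 0.57. Without replicate 2 the glycolysis count was 5 lower and 1 higher, and without replicate 3 it was 7 lower. Of 30 nitric oxide, oxidant and antioxidant genes, 5 were called higher and 7 lower (3 and 4 without replicate 3, 3 higher without replicate 4 and 3 lower with the stricter filter): Nqo1 and Hmox1, targets of the antioxidant factor NRF2, rose by 0.61 ± 0.12 and 0.49 ± 0.09, the mitochondrial superoxide dismutase Sod2 fell by 0.41 ± 0.09 without overlap, and Nos2 stayed at or below 0.302 CPM. Of 7 mitochondrially encoded mRNAs tested, 2 were called higher and 0 lower, with 0 higher without replicate 3, 1 without replicate 1 and 4 without replicate 4 or with the GC correction, and mt-Nd1 and mt-Co1 had log2 fold changes of 0.06 ± 0.08 and 0.24 ± 0.10, neither past the threshold.

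To see whether bFGF altered the effect of the deletion, the iCre-LacZ difference was compared with that in the Con libraries, which are other libraries with the same replicate numbers. In Con, 3655 genes (14.5%) were called. Of these, 2072 were called in the same direction with bFGF, which is 59.3% of the bFGF list and 56.7% of the Con list, and 11 in the opposite direction. Over 13150 genes whose mean reached 1 CPM, Pearson's r between the differences was 0.77, across genes that are not independent and from cells that share a replicate number. The test of the difference between the differences called 0 genes (0%) by edgeR, with 1325 at an unadjusted p under 0.05, 60 by DESeq2 and 66 by edgeR without replicate 2. Its replicate block was shared by both settings, so deviations that a same-numbered pair shares within a setting stayed in its error. A count of 0 in this test thus does not show that the differences were equal.

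Among the lists with at least 10 tested members, ERK feedback genes had the largest difference in median between the settings. In Con, 22 of 24 were called higher in iCre and 0 lower, with a median of 0.95, against 10 (15 without replicate 2) and 0.25 with bFGF. Dusp6 was at 4.09, 15, 4.13 and 5.17 CPM (LacZ) and 10.6, 35.9, 11.3 and 16.4 CPM (iCre) in Con, and at 43.2, 87.9, 73.6 and 74.6 CPM (LacZ) and 50.4, 84.9, 93.9 and 98.8 CPM (iCre) with bFGF. It was higher with bFGF than in Con in both groups, by 3.48 ± 0.19 in LacZ and 2.28 ± 0.20 in iCre on the log2 scale, and its Con level was the higher in iCre. Spry4 was at 4.26, 13.2, 5.07 and 6.59 CPM (LacZ) and 13.5, 33.5, 14.3 and 20.2 CPM (iCre) in Con, and at 74.3, 102, 119 and 91.9 CPM (LacZ) and 81.5, 100.1, 165 and 111 CPM (iCre) with bFGF. The ETS factors Etv5 and Etv4, named after their values were seen, had iCre-LacZ differences of 1.43 ± 0.08 and 1.72 ± 0.13 in Con and -0.05 ± 0.08 and -0.13 ± 0.09 with bFGF. The difference between the settings was -1.13 ± 0.32 for Dusp6 (adjusted p = 0.74), -1.26 ± 0.32 for Spry4 (adjusted p = 0.57) and -1.52 ± 0.30 for Etv5 (adjusted p = 0.38). These errors come from the test with the shared block, which does not use the pairing within each setting as the separate fits do. Of the 24 genes, 0 passed this test and 12 had an unadjusted p under 0.05, all 12 with the smaller difference under bFGF. Without replicate 2, 9 of the 24 passed.

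Interferon-stimulated genes were called lower for 35 of 38 members with bFGF and for 6 in Con, with medians of -0.69 and -0.29. The test of the difference called 0 of them, 7 at an unadjusted p under 0.05, so a difference between the settings was not shown. Of the 31 cholesterol and fatty acid synthesis genes, 24 were called lower with bFGF and 22 in Con, with medians of -0.53 and -0.54. Ccl2 differed in direction: iCre was lower by 0.45 with bFGF and higher by 0.78 ± 0.10 in Con, with a difference of -1.2 ± 0.37 that did not pass the threshold (adjusted p = 0.85). Plxna4 rose with bFGF and had a log2 fold change of -0.26 ± 0.09 in Con, and its difference was 1.28 ± 0.22 (adjusted p = 0.2).

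**Figure D4:**
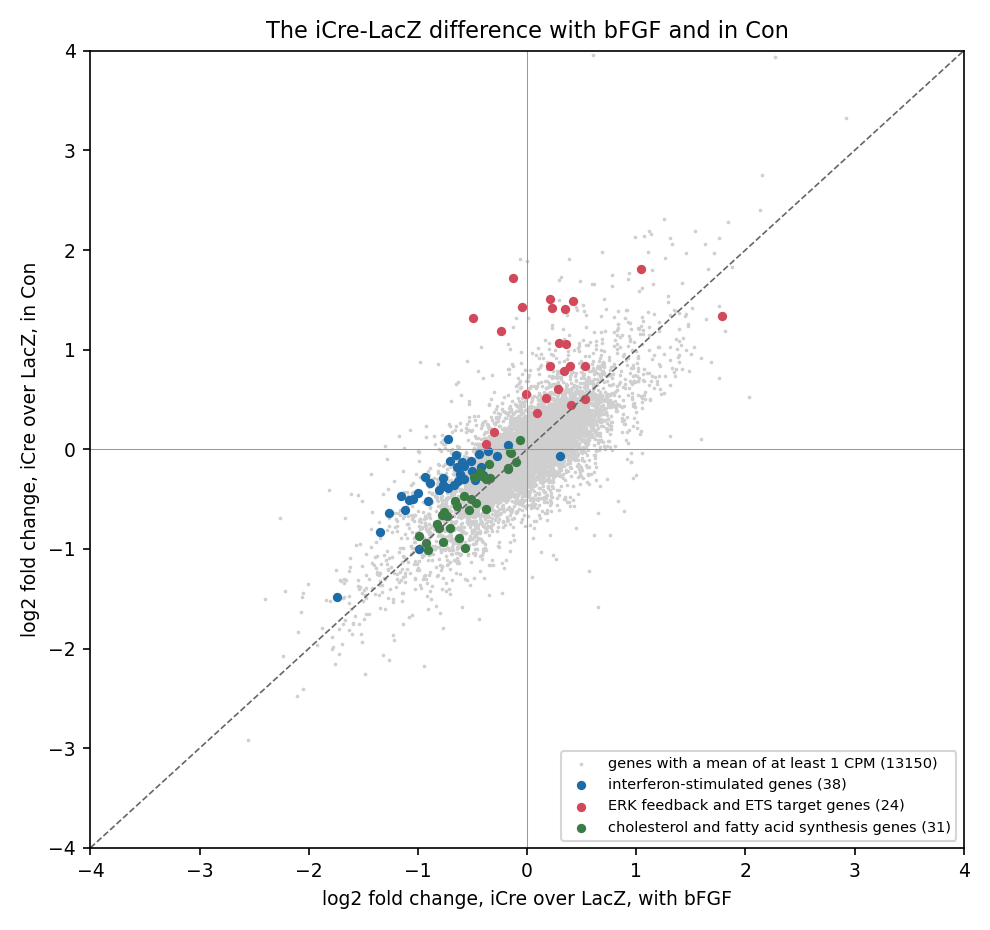
The iCre-LacZ log2 fold change with bFGF (x axis) against that in Con (y axis) for 13150 genes whose mean reached 1 CPM (grey), with interferon-stimulated genes in blue, ERK feedback and ETS target genes in red and cholesterol and fatty acid synthesis genes in green; the dashed line marks equal values. Most red points lie above the dashed line, most blue points lie above it at negative values on the x axis, and green points lie along it.

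The iCre-LacZ difference with bFGF differed from that with TGF for 2212 genes (8.77%) and from that with IL1b for 4029 (16%), and both counts were lower with a correction for GC content. In the TGF and IL1b comparisons, the median iCre-LacZ difference ran from -0.64 and -0.60 in the decile of genes with the lowest transcript GC content to 0.29 and 0.27 in the highest. With bFGF it ran from -0.05 to 0.08 and in Con from -0.05 to 0.05. With the correction, made in each library, the counts were 936 and 3048, and the count for iCre against LacZ with bFGF was 3454 of 24970 genes. The genes with the smallest p-values in both tests had GC contents of 33.9% to 40.4%, and with bFGF their differences were -0.14 to 0.14, none past the threshold. Sh3bgrl was at 382, 353, 359.7 and 297 CPM in the LacZ libraries and 386, 375, 364 and 313 CPM in the iCre libraries with bFGF, and at 330.1, 298, 333 and 289 CPM (LacZ) and 109, 107, 100.2 and 85.2 CPM (iCre) with TGF. The difference between these differences was 1.7 ± 0.10, and 0.99 ± 0.10 with the correction. Ube3a, a ubiquitin ligase, differed by 1.43 ± 0.10 and 0.75 ± 0.10, and the nuclear export receptor gene Xpo1 by 1.17 ± 0.09 and 0.75 ± 0.09. What set the GC trend of the TGF and IL1b libraries was not tested.

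**Figure D5:**
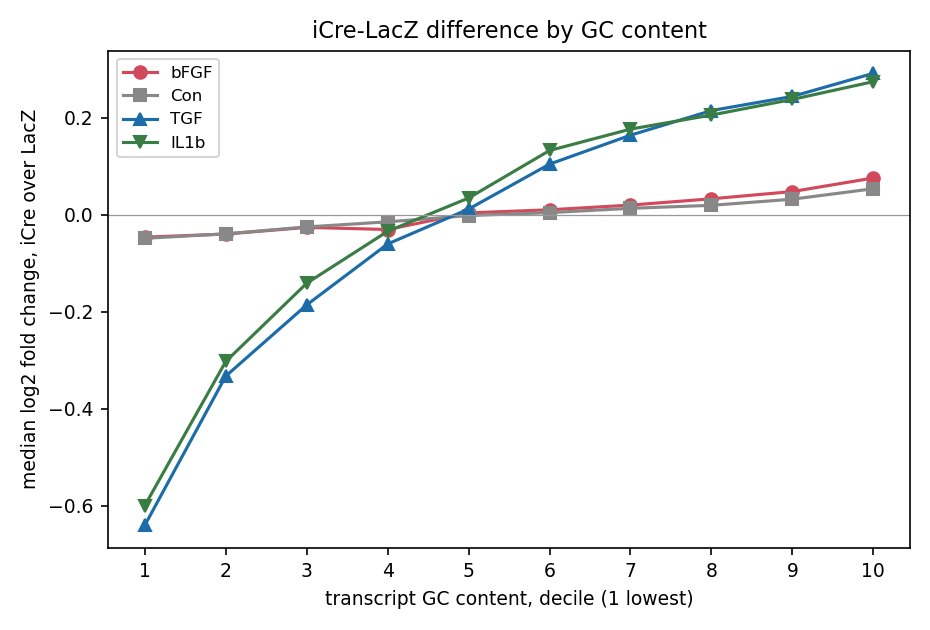
Median iCre-LacZ log2 fold change (y axis) in deciles of genes by transcript GC content (x axis, 1 lowest) for bFGF, Con, TGF and IL1b, over genes whose mean reached 1 CPM, 1312 to 1314 in each decile. The bFGF and Con lines stay within 0.08 of 0, and the TGF and IL1b lines climb from -0.64 and -0.60 to 0.29 and 0.27.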

How the data were processed

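Per the labels and the study's methods, polyadenylated RNA of cardiac fibroblasts was sequenced as single-end reads, checked with FastQC 0.10.1, aligned to mm10 with STAR and counted per Ensembl gene with HTSeq 0.10.0; the versions of FastQC and HTSeq are those of the submitters' processing notes. The authors deposited raw counts, which are neither normalized nor pooled. The annotation release and the strand setting are not given in the sources used here, and the methods and the labels name different library kits. Without a known strand setting, reads of a gene and of an overlapping antisense gene cannot be told apart. Of 55414 identifiers, 52133 matched GENCODE M21 (GRCm38) and held 99.59% of the counts; 0 sample columns were left unused.

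Genes with at least 10 counts over the 40 libraries were tested with edgeR 4.0.16 (R 4.3.3, TMM, quasi-likelihood test, two-sided, Benjamini-Hochberg adjusted p of at most 0.05), with the virus and the replicate number as terms, on the 8 bFGF libraries. The test of a difference between differences used 16 libraries and a replicate block shared by both settings, without a separate block for the pairs of each setting. Printed CPM were scaled by TMM over the 40 libraries. Deviations from the group means correlated at 0.757, 0.848, 0.573 and 0.634 between libraries numbered 1, 2, 3 and 4 (10774 genes), and at -0.73 to 0.449 between different numbers. Taking deviations from group means itself lowers the values between different numbers. Same-numbered libraries thus deviated together and were treated as pairs, and the labels do not say what a number marks. Gene names in the text are Map3k7, the 12 largest rises and falls among called protein-coding genes averaging 1 CPM or more with all 4 pairs moving 1 way, predicted genes left out, the first 2 and up to 4 most changed called members of each list, up to 6 genes per difference between differences, and marker genes; Etv4, Etv5, Nr2f2, Mef2c, Runx1, Osr1 and Zeb1 were added after their values were seen, and some genes that the rule would name are not reported here. The comparison, its gene lists and its naming rule were chosen with earlier results of these data known. The alternatives were DESeq2 1.42.0, other filters and scaling, a correction for GC content, other sets of libraries and genes, and fits without a pair or without the block.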

Additional observations from a re-analysis of the deposited data

Results flagged for a closer look

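In 31 of 348 groups (174 genes named in the text, each in LacZ and in iCre), 1 library lay farther from the other 3 than Dixon's test allows at the 95% level, and chance alone gives about 1 in 20 groups. Replicate 2 was that library in 23 of the 31, replicate 1 in 6, replicate 4 in 2 and replicate 3 in 0. In replicate 2 of both groups, LacZ first, Dsc2 stood high at 2.14 and 6.99 CPM, Fgf10 at 27.7 and 53.0, Cxcl5 at 18.1 and 16.2, Adamts1 at 569.5 and 1112, Adamts15 at 48.5 and 107, Ptgfr at 41.1 and 65.8, and Nr2f2 at 164 and 209.8. In LacZ replicate 2 alone, Sema3a stood high at 139.8 CPM, while Il34 stood apart at 3.57, Timp1 at 438.5, Smad7 at 17.99, Higd1a at 22.4 and Runx1 at 32.9. In iCre replicate 2 alone, Grm7 stood apart at 6.88 CPM, Fos at 43.7 and C1s1 at 375. In iCre replicate 1, Spon1 stood high at 10.2 CPM, Brinp2 at 6.72, Astn1 at 1.75 and Kcnj5 at 6.72. In LacZ replicate 1, Ptgs2 stood low at 17.1 CPM and Mef2c high at 29.8. Tlr3 stood apart at 64.1 CPM in LacZ replicate 4 and Zeb1 at 219.3 CPM in iCre replicate 4.

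The iCre-LacZ difference with bFGF minus that in the TGF libraries, on the log2 scale, was 1.70 for Sh3bgrl, 2.32 for CT030661.1, 1.43 for Ube3a, 2.63 for Zfp758, 1.17 for Xpo1 and 1.63 for Arhgap5, each called by edgeR. Against the IL1b libraries it was 1.66 for Sh3bgrl, 2.28 for CT030661.1, 2.33 for Zfp758, 1.68 for Arhgap5, 2.08 for Zfp942 and 1.74 for Lipo3. All of these genes have a transcript GC content between 33.9% and 40.4%, and each was still called after the GC correction.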

How the results depend on the processing

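Of the 137 called genes named in the text, 0 changed direction under any alternative run, whereas 11 of 37 named genes that were not called did. Of 39 lists, 11 had a median that changed sign under some alternative, among them the printed medians of the contractile genes (0.05 without the block and 0.14 without replicate 4 against -0.04) and of the prostaglandin genes (-0.05 without replicate 1 against 0.06). For the count of genes between iCre and LacZ with bFGF, no other alternative moved it as far as leaving out the block: without the replicate block, edgeR called 0 genes, and DESeq2 without it, an alternative chosen after seeing the data, called 481 (259 higher and 222 lower). With the block, RLE scaling, a stricter filter, no filter, DESeq2, the GC correction, protein-coding genes alone and a fit of all 40 libraries gave 3522, 2918, 3729, 3320, 3454, 2964 and 2595 genes against 3492, a change of at least 1 on the log2 scale left 513, and leaving out a pair gave 2111 to 3556. The difference from Con was called for 0 genes with and without the block, for 60 by DESeq2, and for 0 to 66 without a pair, the 66 without replicate 2. The difference from TGF was called for 3346 genes by DESeq2, 905 without the block, 936 with the GC correction and 721 to 2685 without a pair, against 2212. That from IL1b was called for 1574 genes without the block and 2640 to 3713 without a pair, the lowest without replicate 3, against 4029. Of the 137 called genes named in the text, 137 were called with RLE scaling and with no filter, 131 with DESeq2 (all but Adamts2, Fgf23, Il6, Mef2c, Ptgs2 and Ryr2), 131 with the GC correction, 123 with the stricter filter and 121 to 128 without a pair. A fit of all 40 libraries called 82 of them, DESeq2 without the block 30, and edgeR without it 0. By list, the fit of all 40 libraries called lower 3 interferon-stimulated genes against 35, 3 sterol and fatty acid genes against 24, 10 replication and mitosis genes against 39, 10 matricellular and cross-linking genes against 24, 2 ER stress and ATF4 target genes against 21, 4 chemokines against 9, 4 IL-1, TNF and Toll-like receptors against 7, 2 cytokines against 8, 0 antigen presentation genes against 6, 1 glycolysis and hypoxia gene against 11, 7 growth factors against 15, 2 oxidant genes against 7, 3 contractile genes against 5 and 2 metalloproteinases and TIMPs and 2 ADAMTS and ADAM genes against 4 each. It called higher 11 axon guidance genes against 20, 1 ERK feedback gene against 10, 4 growth factors against 9, 3 TGFb and BMP genes against 7, 1 ADAMTS or ADAM gene against 6, 0 metalloproteinases and TIMPs against 4, and 2 AP-1 factors, 2 collagens, 1 matricellular gene, 2 cardiac fibroblast factors and 2 oxidant genes against 5 each. The cause of these losses was not tested. Low levels limited the precision: the standard error was 0.36 for Fgf23 at a mean of 1.62 CPM, 0.43 for Ryr2 at 0.619 CPM and 1.12 for Nos2 at 0.101 CPM, so changes of such genes no larger than their errors could not be called at this depth.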
